A study of Homo sapiens with 29 samples.

Results

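The replication-dependent histone genes lie in clusters on chromosomes 6 and 1 and encode the histones that package newly made DNA. They were taken here as the genes whose annotated symbol, old or updated, names a clustered histone of class H1, H2A, H2B, H3 or H4. Of the 12165 genes measured on the array, 50 met the rule: 6 for H1, 11 for H2A, 14 for H2B, 9 for H3 and 10 for H4. A further 6 probe sets were shared by several such genes, H2AC18 with H2AC19 and H4C11 with H4C12 by 2 sets each, and H2BC4 with H2BC8 and H4C14 with H4C15 by 1 set each. All 56 were tested among 12171 features, and 50 of them lie on chromosome 6 and 6 on chromosome 1. The gene H3-4, whose updated symbol is outside the rule, stood between 2.35 and 2.96 on the log2 scale in all arrays and was not counted.

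The RNA came from DHL4 and DHL6, established lines of diffuse large B-cell lymphoma, a tumour of mature B cells. Each line was cultured in medium with serum and either 1 µM R406, which inhibits the B-cell receptor kinase SYK, for 2, 6, 24 or 48 h, or the solvent DMSO alone. Each of the 10 groups held 3 arrays, except DHL4 in DMSO with 2, giving 29 arrays. The labels give the DMSO arrays no time, and the 4 R406 times of a line share them, so treatment time and culture time cannot be told apart and the 4 comparisons are not independent. Separate cultures are not named for the arrays in the labels, and all p-values therefore rest on a spread between arrays that could be technical.

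Values are log2 expression as deposited, and a change is the R406 mean minus the DMSO mean of the line on the log2 scale ± SE. A feature is called, and is said to rise or fall, where its limma p-value adjusted over all 12171 features was below 0.05. Replicate arrays correlated across features at r between 0.978 and 0.996. The B-cell genes MS4A1, CD79A, CD79B, BLK and POU2AF1 had mean log2 levels of 7.10 or more, while PAX5, at 2.85, was near the floor. Of these 6, 4 rose and 1 fell in DHL4 at 24 h, and 3 rose and 2 fell in DHL6. Of all features 13.0% rose and 16.5% fell in DHL4, and 6.22% and 8.18% in DHL6. MS4A1 changed by -2.33 in DHL4 and -1.06 in DHL6, and CD79A by 0.90 and -1.03. Of 4 germinal centre markers, MME rose and LMO2 fell at 24 h in both lines. All 5 T-cell and 4 monocyte markers measured had means under 4 and were called in none of the 8 comparisons with DMSO. Of the 5 fibroblast or endothelial markers, COL1A1, COL1A2, COL3A1 and VWF were likewise never called. Most histone features were dim: 45 of 56 had a mean over all arrays under 4, as did 58.2% of all features. The files do not say which values are above background, so changes from that range are given on the log2 scale as estimates and without a fold. In bulk RNA, fewer cells that express a gene and less RNA per cell cannot be told apart.

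Nucleosomes wrap DNA around a core of H2A, H2B, H3 and H4, and linker histone H1 binds where the DNA enters and leaves. The clustered genes are transcribed mainly in S phase, when NPAT drives their promoters, and their messages end in a stem-loop bound by SLBP instead of a poly(A) tail. Tailing by TUT7 and related enzymes takes part in the decay of these messages once replication stops. Some clustered genes also make polyadenylated transcripts, which are known from cells that have left the cell cycle. The labels name a standard Affymetrix labelling protocol without its primer, so stem-loop and polyadenylated messages cannot be told apart in these values.

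The members that carry the results below share promoter elements, and 5 are shown to let a reader set the genes that rose beside 1 that fell. The windows are the 250 bases before the start of each gene in RefSeq (GRCh38.p14), read 5′ to 3′ on the gene's strand. Capitals mark the CCAAT box, the letters TATAA of the TATA box, and the octamer ATTTGCAT wherever they occur on either strand, reverse complements included, and overlapping matches run together. H2BC12 is at chr6:27146859-27147108 on the minus strand, H2BC5 at chr6:26157871-26158120 on the plus strand, H2AC6 at chr6:26123922-26124171 on the plus strand, H2BC8 at chr6:26216689-26216938 on the minus strand and H1-4 at chr6:26156079-26156328 on the plus strand.
H2BC12: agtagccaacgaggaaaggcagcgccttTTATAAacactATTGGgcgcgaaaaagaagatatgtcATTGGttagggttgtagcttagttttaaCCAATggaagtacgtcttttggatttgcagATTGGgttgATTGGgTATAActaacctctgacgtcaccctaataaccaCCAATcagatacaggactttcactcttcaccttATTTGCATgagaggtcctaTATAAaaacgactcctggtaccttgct
H2BC5: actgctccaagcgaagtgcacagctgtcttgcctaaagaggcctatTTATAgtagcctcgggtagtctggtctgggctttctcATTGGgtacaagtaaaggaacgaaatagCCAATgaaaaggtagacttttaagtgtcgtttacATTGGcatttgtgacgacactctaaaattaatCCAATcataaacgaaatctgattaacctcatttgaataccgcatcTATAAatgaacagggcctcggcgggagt
H2AC6: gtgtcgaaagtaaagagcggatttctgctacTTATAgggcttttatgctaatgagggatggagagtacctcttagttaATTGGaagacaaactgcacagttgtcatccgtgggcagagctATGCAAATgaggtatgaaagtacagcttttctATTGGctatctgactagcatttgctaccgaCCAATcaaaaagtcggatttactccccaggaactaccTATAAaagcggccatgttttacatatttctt
H2BC8: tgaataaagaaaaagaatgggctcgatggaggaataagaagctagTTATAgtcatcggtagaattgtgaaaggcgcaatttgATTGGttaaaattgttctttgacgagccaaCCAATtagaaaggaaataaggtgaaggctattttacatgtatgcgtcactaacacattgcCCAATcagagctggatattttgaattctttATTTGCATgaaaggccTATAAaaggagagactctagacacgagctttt
H1-4: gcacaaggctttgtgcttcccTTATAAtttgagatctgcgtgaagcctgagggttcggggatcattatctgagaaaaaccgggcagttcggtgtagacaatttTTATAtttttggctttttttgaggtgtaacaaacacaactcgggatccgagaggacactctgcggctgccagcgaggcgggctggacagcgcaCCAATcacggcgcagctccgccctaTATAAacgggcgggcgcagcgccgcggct

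A RefSeq window was found for 52 of the 56 gene symbols behind the features. A histone symbol was counted where any of its windows held the letters. All windows of the table were counted singly, so the shares below are not counted alike. CCAAT occurred in 43 of the 52 and in 32.0% of all 35116 windows of the same length in the table. TATAA occurred in 48 of the 52 and in 18.9% of all windows. The octamer, the site of POU family factors known from histone H2B promoters, occurred in 20 of the 52 and in 1.63% of all windows. By class it was found in 12 of 15 H2B, 7 of 12 H2A, 1 of 7 H3, 0 of 6 H1 and 0 of 12 H4 windows. Among genes measured by a set of their own, 11 of the 19 that rose in DHL6 at 24 h held the octamer, as did 8 of the 27 that did not. CCAAT occurred in 17 of the 19 and 24 of the 27, and TATAA in 19 of the 19 and 25 of the 27. The split was not made within classes, so octamer and histone class cannot be told apart, and no link to the rise was tested. Of the 5 windows shown, those of H2BC12, H2AC6 and H2BC8 hold the octamer and those of H2BC5 and H1-4 do not. These matches describe the letters and were not tested as binding sites.

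At 24 h in DHL6, 24 of the 50 core histone features rose, and 4 H2A and H2B features rose in both lines at that time. In DHL6, 24 of 56 histone features rose and 1 fell at 24 h, where 6.22% of all features rose and 8.18% fell, 14.4% in all. At 48 h in DHL6, 18 rose and 3 fell, against 8.41% and 14.9% of all features, 23.3% in all. In DHL4, 4 rose and 2 fell at 24 h, against 13.0% and 16.5% of all features (29.5% in all), a smaller share of rises than among all features. In DHL4 at 48 h 1 rose and 1 fell (3.53% and 3.79% of all features, 7.32% either way). The median change of the 56 features was 0.30 at 24 h and 0.24 at 48 h in DHL6, where the median of all features was 0.02 and 0.04. In DHL4 the median of the 56 was 0.08 at 24 h and -0.01 at 48 h. In DHL4 PECAM1, an adhesion molecule of endothelium that leukocytes carry too, moved with these times: it rose by 1.09 ± 0.18 at 6 h, 4.56 ± 0.18 at 24 h and 1.72 ± 0.18 at 48 h. With it the summed log2 level of the 5 fibroblast or endothelial markers was 14.63 to 15.31 in DHL4 DMSO, 19.99 to 20.32 at 24 h and 16.5 to 17.4 at 48 h, while in DHL6 it was 14.3 to 14.4 in DMSO and 14.4 to 15.1 at 24 h. Its part in the histone changes was not tested.

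**Figure D1:**
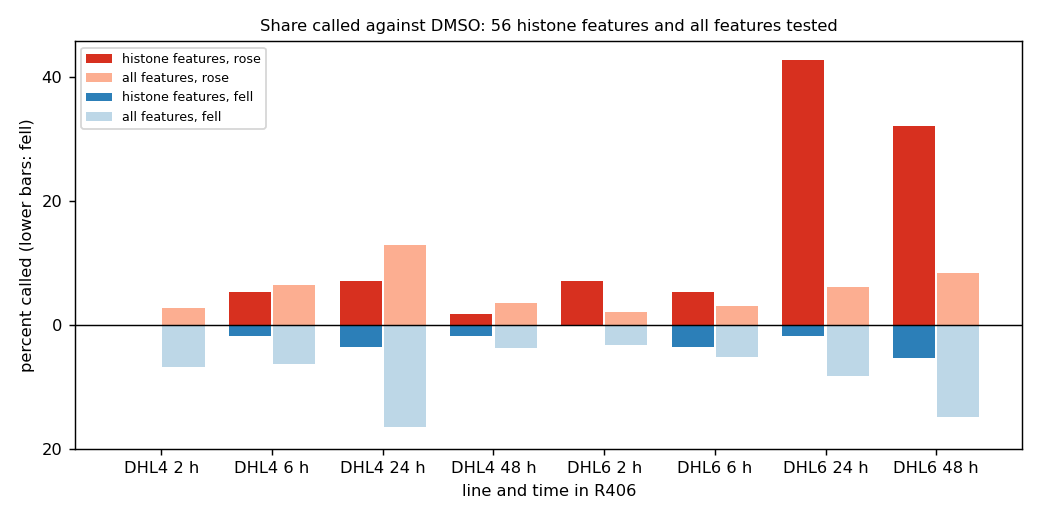
Percent of the 56 histone features and of all 12171 features called higher (upper bars) or lower (lower bars) than DMSO, by line and hours in R406. The bars of histone features that rose stand above those of all features at 24 and 48 h in DHL6, and below them at 24 and 48 h in DHL4.

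Few histone features moved earlier. In DHL4 at 2 h limma called 0 of 56 (9.47% of all features were called, 2.67% higher and 6.80% lower), with 2 higher and 2 lower at an unadjusted p below 0.05. At 6 h in DHL4, 3 rose and 1 fell, against 6.42% and 6.36% of all features (12.8% either way). In DHL6, 4 rose and 0 fell at 2 h, against 2.14% and 3.16% of all features (5.30% either way). At 6 h in DHL6, 3 rose and 2 fell, against 3.14% and 5.12% (8.26% either way). Without replicate 2 at 2 h, 1 feature was called in DHL4 at 2 h, and without DMSO replicate 2, 2 were called in DHL4 at 6 h. In DHL6 at 2 h, 1 was called without DMSO replicate 1 or replicate 3 at 2 h, and at 6 h 1 was called without DMSO replicate 3. Over the 8 comparisons, 32 features were called at least once. The other 24 were called in none, and their changes lay between -0.64 and 0.50.

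**Figure D2:**
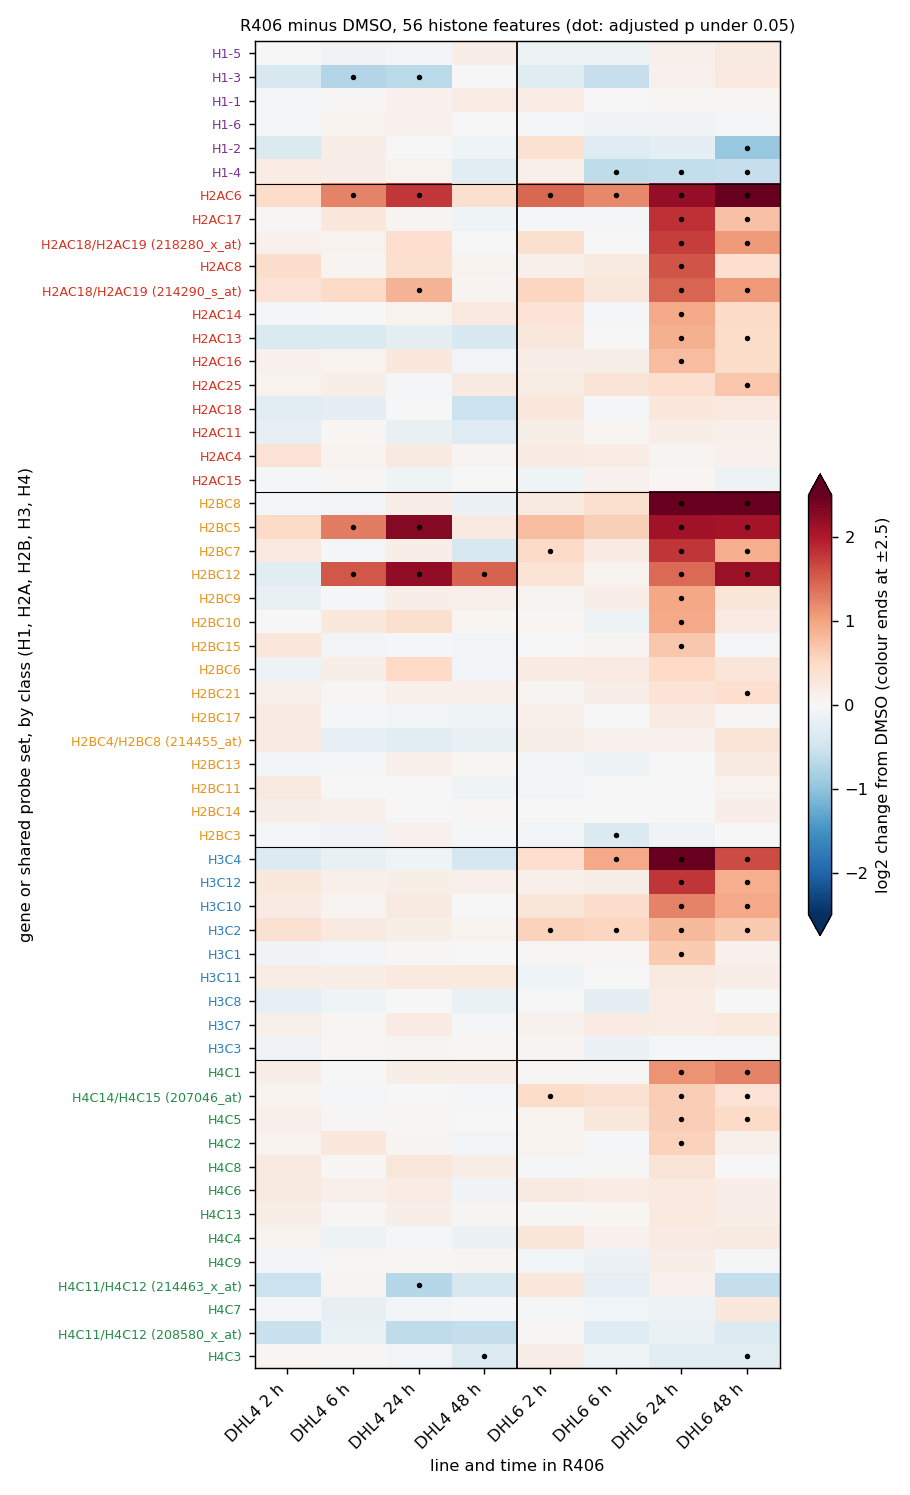
Log2 change from DMSO (colour, red higher and blue lower, ending at ±2.5) of the 56 histone features in rows, grouped by class, at 4 times in DHL4 and DHL6 in columns. Dots mark limma adjusted p under 0.05: H2AC6, H2BC5 and H2BC12 have dots at 24 h in both lines, and most other dots lie in the 24 and 48 h columns of DHL6.

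Of the 6 linker histone H1 genes, limma called 0 higher in the 8 comparisons, where between 2.14% and 13.0% of all features rose. Of the 6, 3 were near the floor, and the class was not tested against the other classes. H1-4, a linker histone made in many somatic cells, read 6.72, 6.80 and 6.92 in the DHL6 DMSO arrays. It read 6.39, 6.20 and 5.93 at 6 h, 6.34, 5.88 and 6.40 at 24 h, and 6.50, 5.95 and 6.27 at 48 h. All 9 R406 arrays from 6 h on lay below the DMSO arrays, and the change was -0.64 ± 0.18 at 6 h, -0.61 ± 0.18 at 24 h and -0.57 ± 0.18 at 48 h (limma adjusted p between 0.0224 and 0.0255). The call was lost at each of these times when DMSO replicate 2 or 3 was left out, with changes from -0.52 to -0.65, at 6 h without replicate 2 or 3 (-0.65 and -0.52), and without replicate 2 at 24 h (-0.44) and 48 h (-0.43). After quantile normalization the change at 48 h was -0.32 and not called. H1-2, another somatic linker histone, read 7.23, 7.27 and 6.92 in DMSO and 5.48, 6.14 and 6.93 at 48 h in DHL6, and fell by 0.95 on the log2 scale. Its groups overlapped, and without replicate 1 at 48 h the change was -0.60 and not called.

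In DHL4 the linker gene that fell was H1-3. It read 4.83 and 5.09 in DMSO, 3.95, 4.66 and 4.11 at 6 h, and 4.81, 3.98 and 4.05 at 24 h. The arrays of these groups did not overlap with DMSO, and the change was -0.72 ± 0.23 at 6 h and -0.68 ± 0.23 at 24 h. At 48 h it read 5.21, 5.23 and 4.43, 0.68 ± 0.21 above 24 h, with overlapping arrays. Both falls were lost when either DMSO array was left out (changes from -0.56 to -0.85), and also without replicate 1 or 3 at 6 h and without replicate 2 or 3 at 24 h. They were lost as well with a replicate block (-0.61 and -0.57) and after quantile normalization (-0.71 and -0.58). The linker genes H1-1, H1-5 and the testis-type H1-6 were called in none of the 8 comparisons.

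Among H2A features, 8 of 13 rose in DHL6 at 24 h and 6 at 48 h, and 2 rose in DHL4 at 24 h. Of all features, 6.22% rose in DHL6 at 24 h, 8.41% at 48 h and 13.0% in DHL4 at 24 h. The 2 H2A rises in DHL4 were thus near the share of all features. None of the 13 fell in the 8 comparisons, where between 3.16% and 16.5% of all features fell. H2AC6 encodes a core H2A, measured by 1 probe set whose suffix marks probes that can match several genes. It was called in 6 of the 8 comparisons. In DHL6 it read 4.22, 4.26 and 3.84 in DMSO, 5.07, 5.78 and 5.76 at 2 h, 5.23, 5.63 and 5.10 at 6 h, 6.38, 6.31 and 6.25 at 24 h, and 6.72, 6.86 and 6.60 at 48 h. Every R406 array of DHL6 stood above every DMSO array. The changes were 1.43 ± 0.21, 1.21 ± 0.21, 2.20 ± 0.21 and 2.62 ± 0.21, the last a 6.14-fold rise, with limma adjusted p = 4.48e-05 at 2 h and 1.55e-09 at 48 h.

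In DHL4, H2AC6 rose and then fell. It read 3.56 and 3.36 in DMSO, 4.31, 3.85 and 3.60 at 2 h, 4.53, 4.61 and 4.97 at 6 h, 5.26, 4.97 and 5.47 at 24 h, and 3.71, 3.62 and 4.27 at 48 h. The rise was 1.24 ± 0.23 at 6 h and 1.77 ± 0.23 at 24 h, and the level then fell by 1.36 ± 0.21 from 24 to 48 h. The change at 48 h was 2.21 ± 0.31 larger in DHL6 than in DHL4 (limma test of the difference, adjusted p = 7.54e-05). At 2, 6 and 24 h the difference between lines was not called.

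The sets shared by H2AC18 and H2AC19, near-identical H2A genes on chromosome 1, also rose. The brighter of their sets read 5.58, 5.78 and 6.27 in DHL6 DMSO and 7.50, 7.21 and 7.27 at 24 h, a rise of 1.45 ± 0.23, and 6.76, 6.60 and 7.48 at 48 h, a rise of 1.07 ± 0.23. In DHL4 it read 5.01 and 4.53 in DMSO and 5.41, 5.76 and 5.70 at 24 h, a rise of 0.85 ± 0.26, which was not called without DMSO replicate 2 (0.61). The arrays of these groups did not overlap with their DMSO arrays. The dimmer set read 3.69, 3.96 and 3.81 in DHL6 DMSO, 5.58, 5.59 and 5.48 at 24 h, and 4.14, 5.10 and 5.44 at 48 h. It rose by 1.73 ± 0.29 and 1.07 ± 0.29, the second lost without replicate 3 at 48 h (0.80). The set annotated to H2AC18 alone read 2.90, 2.87 and 2.89 in DHL6 DMSO and 3.13, 3.11 and 3.20 at 24 h, and was not called there. Probe sets for the same gene thus gave different answers, and which gene carries the signal cannot be told apart.

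The other H2A calls were made in DHL6, from levels near the floor. H2AC17 read 2.93, 2.98 and 2.91 in DMSO, 5.42, 4.52 and 4.34 at 24 h, and 4.17, 3.40 and 3.43 at 48 h. It rose by 1.82 ± 0.20 and 0.73 ± 0.20, and the call at 48 h was lost without replicate 1 (0.48). H2AC8, paired head to head with H2BC8 in the cluster, read 3.03, 3.0 and 3.07 in DMSO and 4.61, 4.71 and 4.49 at 24 h, a rise of 1.57 ± 0.19, and 3.22, 3.64 and 3.52 at 48 h, where it was not called. H2AC14 (0.96), H2AC13 (0.88) and H2AC16 (0.78) rose at 24 h. H2AC25 rose at 48 h (0.70). The call of H2AC16 was lost without replicate 3 at 24 h (0.57), and that of H2AC25 without replicate 3 at 48 h (0.54). The lines differed at 24 h for H2AC17 (1.76 ± 0.30), H2AC8 (1.16 ± 0.28), H2AC13 (1.10 ± 0.18), H2AC14 (0.88 ± 0.27) and the dimmer set of H2AC18 and H2AC19 (1.30 ± 0.43), as the limma test of the difference showed. The calls of H2AC14 and of the dimmer set were lost when single arrays were left out, the latter also with the replicate block (1.27).

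Among H2B features, 7 of 15 rose in DHL6 at 24 h and 5 at 48 h, and 2 rose in DHL4 at 24 h. The shares of all features were 6.22%, 8.41% and 13.0%, so the 2 H2B rises in DHL4 were near the share of all features. H2BC12 encodes a core H2B from a gene that spans 8566 bases in RefSeq, where the median of the 56 genes is 491. In DHL4 it read 5.74 and 5.63 in DMSO, 5.61, 5.85 and 4.80 at 2 h, 7.33, 7.17 and 7.23 at 6 h, 7.95, 7.76 and 8.0 at 24 h, and 7.12, 7.22 and 7.14 at 48 h. From 6 h on every R406 array was above both DMSO arrays. It rose by 1.56 ± 0.22 at 6 h, 2.22 ± 0.22 (4.66-fold, limma adjusted p = 1.40e-08) at 24 h and 1.47 ± 0.22 at 48 h.

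In DHL6, H2BC12 rose later. It read 6.27, 6.33 and 6.33 in DMSO, 6.42, 6.62 and 6.91 at 2 h, 6.87, 6.44 and 5.89 at 6 h, 7.85, 7.60 and 7.75 at 24 h, and 8.52, 8.49 and 8.42 at 48 h. The 6 h arrays spread to both sides of the DMSO arrays, and the 24 and 48 h arrays lay above them. The rise was 1.42 ± 0.20 at 24 h and 2.17 ± 0.20 at 48 h. The difference between lines at 6 h (DHL6 minus DHL4) was -1.47 ± 0.30 (limma adjusted p = 0.00213). The second H2BC12 set, whose suffix marks probes that can match several genes, rose at 24 h in both lines (1.22 in DHL4, 1.35 in DHL6). It also rose at 48 h in DHL6 (1.70). In that set the changes in DHL4 at 6 h (0.67) and 48 h (0.49) were not called, and the difference between lines was -0.07 ± 0.32 at 6 h. At 48 h that set differed between lines (1.21 ± 0.32), which the set of highest mean did not (0.69 ± 0.30, not called).

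H2BC5, another H2B gene that is long in RefSeq (13229 bases), also rose in both lines in its set of highest mean. In DHL4 it read 3.73 and 3.66 in DMSO, 3.57, 4.38 and 4.60 at 2 h, 5.23, 4.78 and 4.93 at 6 h, 5.87, 6.40 and 5.71 at 24 h, and 3.84, 4.02 and 3.93 at 48 h. It rose by 1.28 ± 0.31 at 6 h and 2.30 ± 0.31 at 24 h, and fell by 2.06 ± 0.27 from 24 to 48 h. In DHL6 it read 4.79, 4.86 and 4.97 in DMSO, 5.19, 5.82 and 5.91 at 2 h, 5.99, 5.68 and 4.72 at 6 h, 7.05, 7.01 and 6.88 at 24 h, and 6.46, 7.28 and 7.10 at 48 h. The rise was 2.11 ± 0.27 at 24 h and 2.07 ± 0.27 at 48 h, with no overlap between these arrays and DMSO.

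The 48 h change of H2BC5 was 1.84 ± 0.41 larger in DHL6 than in DHL4. The call at 6 h in DHL4 was lost without DMSO replicate 2 (1.25). The second H2BC5 set rose by 0.78 in DHL4 and 2.05 in DHL6 at 24 h and by 0.83 in DHL6 at 48 h. In that set the 24 h change was 1.26 ± 0.34 larger in DHL6 (limma adjusted p = 0.0121) and the 48 h difference was not called (0.54 ± 0.34), the reverse of the set of highest mean. Both H2BC5 sets carry a suffix that marks probes matching several genes, so other H2B genes may contribute.

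**Figure D3:**
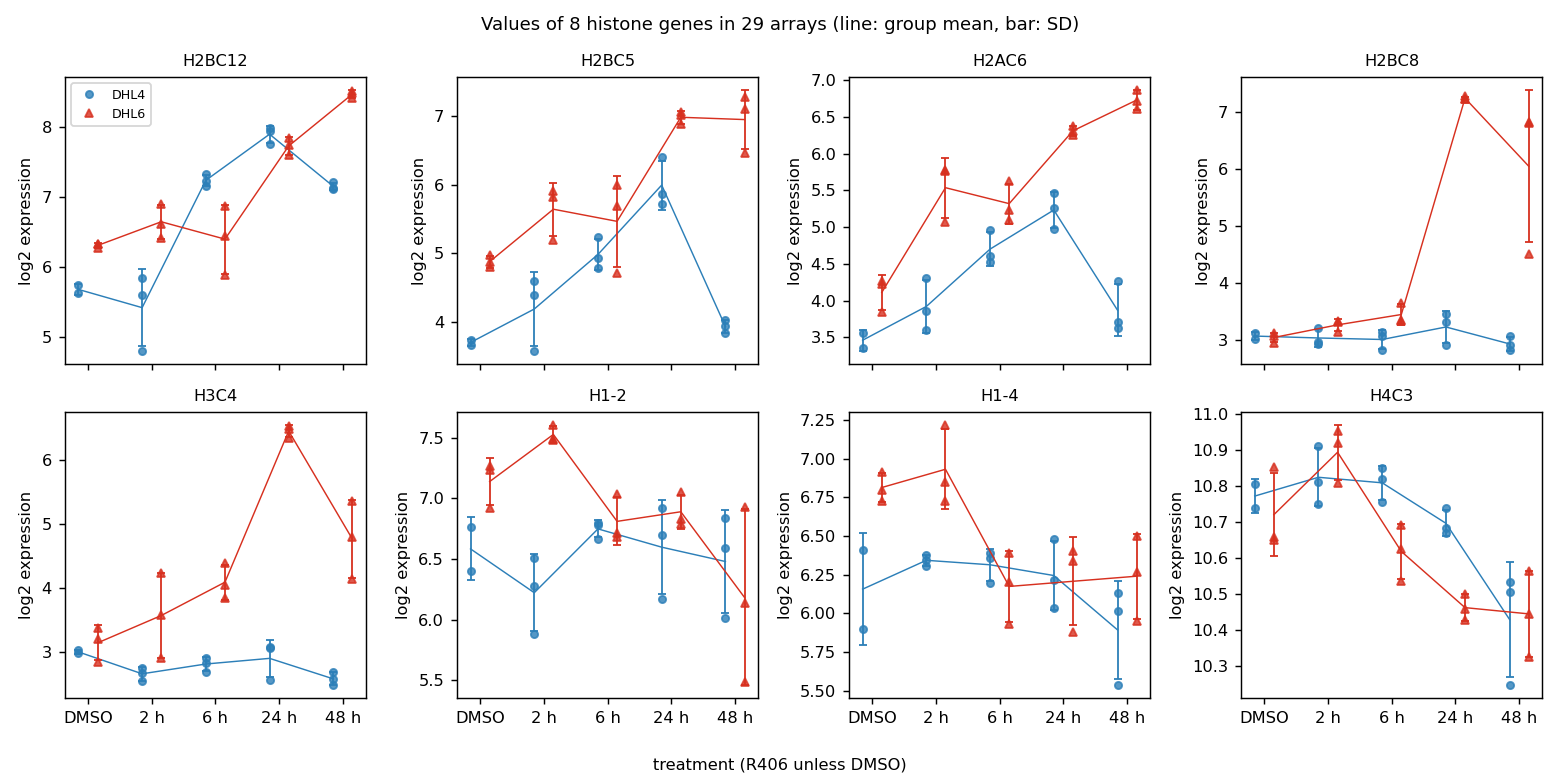
Log2 expression of 8 histone genes in each of the 29 arrays (points) by treatment, with group means (lines) and SD (bars), DHL4 as blue circles and DHL6 as red triangles. Axes differ between panels. H2BC12, H2BC5 and H2AC6 are higher at 24 h in both lines, H2BC8 and H3C4 in DHL6, while the axis of H4C3 spans less than 1 log2 unit.

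H2BC8, a core H2B gene, had the largest change of any member. In DHL6 it read 2.95, 3.07 and 3.12 in DMSO, 3.14, 3.34 and 3.32 at 2 h, 3.33, 3.65 and 3.36 at 6 h, 7.28, 7.23 and 7.24 at 24 h, and 6.81, 4.51 and 6.84 at 48 h. In DHL4 all 14 arrays read between 2.82 and 3.47. The change in DHL6 was 4.20 ± 0.34 at 24 h (limma adjusted p = 1.66e-09), from a DMSO level near the floor, and 3.01 ± 0.34 at 48 h, where replicate 2 stood apart from the other 2 arrays. The lines differed by 4.04 ± 0.51 at 24 h and 3.14 ± 0.51 at 48 h. The second set, whose suffix marks probes that can match several genes, rose by 2.32 at 24 h and 1.34 at 48 h in DHL6. A set shared with H2BC4 read 2.34 to 3.22 in all arrays and was never called.

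H2BC7 read 3.81, 3.53 and 3.86 in DHL6 DMSO, 3.96, 4.27 and 4.40 at 2 h, 5.24, 5.72 and 5.60 at 24 h and 4.64, 4.59 and 4.72 at 48 h. It rose by 0.48 ± 0.14, 1.79 ± 0.14 and 0.92 ± 0.14 at these times. The call at 2 h was lost when any of the 3 DMSO arrays was left out (0.38 to 0.54). The 24 and 48 h changes were larger in DHL6 than in DHL4 (1.62 ± 0.21 and 1.31 ± 0.21). H2BC9 (0.96), H2BC10 (0.95) and H2BC15 (0.66) rose at 24 h and H2BC21 at 48 h (0.41), all with DHL6 DMSO means under 4. The calls of H2BC15 and H2BC21 were each lost without 1 of several arrays. H2BC3 was the 1 H2B feature that fell, at 6 h in DHL6: it read 2.86, 2.89 and 2.94 in DMSO and 2.69, 2.47 and 2.48 at 6 h, a change of -0.35 ± 0.09 near the floor. It was lost without DMSO replicate 2 or 3 or replicate 2 or 3 at 6 h.

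Among H3 features, 5 of 9 rose in DHL6 at 24 h and 4 at 48 h, where 6.22% and 8.41% of all features rose. In DHL4, 0 of 9 were called at any time, where between 7.32% and 29.5% of all features were called. H3C4, which encodes H3.1, the S phase form of H3, read 3.38, 3.21 and 2.84 in DHL6 DMSO and 2.90, 3.58 and 4.23 at 2 h. It read 3.84, 4.39 and 4.05 at 6 h, 6.54, 6.48 and 6.34 at 24 h, and 4.14, 4.80 and 5.35 at 48 h. The change was 0.95 ± 0.25 at 6 h, 3.31 ± 0.25 at 24 h (limma adjusted p = 8.40e-10) and 1.62 ± 0.25 at 48 h. The 6 h call was lost without DMSO replicate 3 or replicate 2 at 6 h (0.80 each). In DHL4 all 14 arrays read between 2.48 and 3.08, and the lines differed by 3.41 ± 0.38 at 24 h and 2.04 ± 0.38 at 48 h.

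A second H3C4 set, whose suffix marks probes that can match several genes, rose by 1.76 at 24 h and 1.28 at 48 h in DHL6. In RefSeq the H2A gene H2AC7 lies within the span of H3C4, so signal named H3C4 may come from either gene. H3C12 read 2.53, 2.54 and 2.62 in DHL6 DMSO, 4.61, 4.74 and 3.71 at 24 h, and 3.22, 2.95 and 4.23 at 48 h. It rose by 1.79 ± 0.24 and 0.90 ± 0.24, the second lost without replicate 3 at 48 h (0.52). H3C10 rose by 1.25 ± 0.18 at 24 h and 0.94 ± 0.18 at 48 h, and H3C1 by 0.65 ± 0.12 at 24 h. H3C2 read 2.39, 2.74 and 2.53 in DMSO, 3.06, 3.01 and 3.30 at 2 h and 3.29, 2.80 and 3.18 at 6 h, and rose at all 4 times (0.57, 0.54, 0.81 and 0.66). Its calls at 2 and 6 h were lost without DMSO replicate 1 or 3, and without replicate 1 or 3 at the time in question.

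Among H4 features, 4 of 13 rose in DHL6 at 24 h, where 6.22% of all features rose. H4C1 read 2.78, 3.02 and 2.69 in DMSO, 4.60, 3.66 and 3.61 at 24 h, and 4.49, 2.96 and 4.73 at 48 h. It rose by 1.12 ± 0.30 and 1.23 ± 0.30, but replicate 2 at 48 h lay within the range of DMSO, and the 24 h call was lost without replicate 1 (0.80). H4C5 rose by 0.61 at 24 h and 0.49 at 48 h, and H4C2 by 0.57 at 24 h, a call lost without replicate 1 (0.37). The set shared by H4C14 and H4C15 read 2.47, 2.68 and 2.69 in DMSO, 2.84, 3.06 and 3.35 at 2 h, and 3.20, 3.29 and 3.19 at 24 h. It rose by 0.47 ± 0.13 at 2 h, 0.61 ± 0.13 at 24 h and 0.36 ± 0.13 at 48 h, with the 2 h and 48 h calls lost when single arrays were left out (0.33 without replicate 3 at 2 h).

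H4C3, a core H4 gene, was read far above the floor in every array. In DHL4 it read 10.81 and 10.74 in DMSO, 10.74, 10.67 and 10.68 at 24 h, and 10.51, 10.54 and 10.25 at 48 h. In DHL6 it read 10.66, 10.85 and 10.65 in DMSO, 10.50, 10.43 and 10.46 at 24 h, and 10.33, 10.56 and 10.45 at 48 h. It fell at 48 h in both lines, by 0.34 ± 0.10 in DHL4 and 0.28 ± 0.09 in DHL6, and at no time rose. After quantile normalization the 48 h changes were -0.27 and -0.09 and neither was called. In each line the call was also lost when certain single arrays were left out. One of the sets shared by H4C11 and H4C12 read 4.63 and 4.04 in DHL4 DMSO and 3.70, 3.47 and 3.69 at 24 h. It fell by 0.72 ± 0.27, a call lost without DMSO replicate 1 (-0.42), without any of the 3 arrays at 24 h and without several arrays of other groups. The other shared set of this pair, at -0.64 ± 0.25, was not called.

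The lines differed in how the members responded, and these differences were tested directly. At 24 h the change of 13 histone features was larger in DHL6 than in DHL4 and that of 0 was smaller, where 9.37% and 6.99% of all features were so called (16.4% either way). At 48 h 7 were larger and 0 smaller (1.62% and 3.46% of all features, 5.08% either way). At 6 h 1 was smaller, H2BC12, and 0 larger (3.96% and 3.08%, 7.04% either way). At 2 h limma called 0, with 4 at an unadjusted p below 0.05, where 1.22% of all features were called larger and 0.534% smaller (1.76% either way). H2AC6, H2BC5 and H2BC12 were not among the 13 at 24 h: the differences were 0.43 ± 0.31, -0.19 ± 0.41 and -0.80 ± 0.30.

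**Figure D4:**
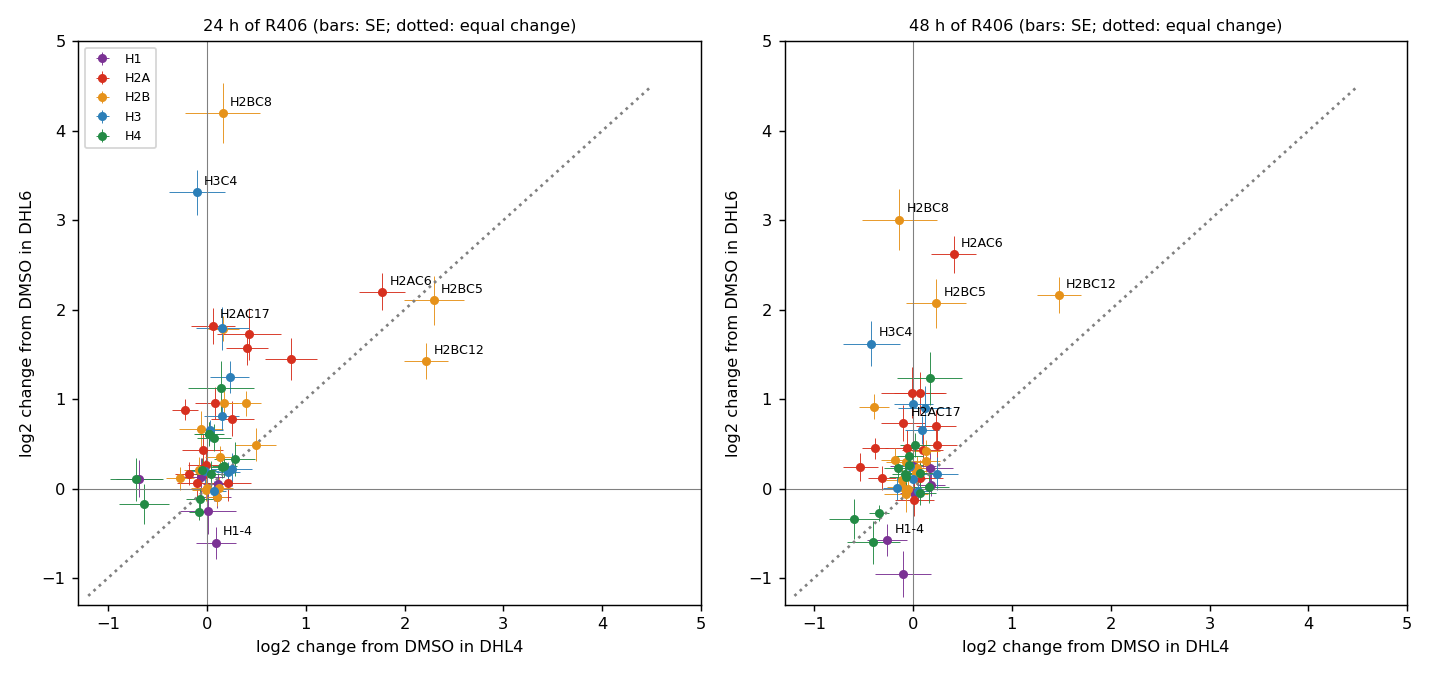
Log2 change from DMSO of the 56 histone features in DHL4 (x axis) and DHL6 (y axis) at 24 h (left) and 48 h (right), with SE bars, coloured by class; the dotted line marks equal change. At 24 h H2AC6, H2BC5 and H2BC12 lie at the right near the dotted line and H2BC8 and H3C4 at the top left; at 48 h H2BC12 is the 1 feature that had risen in both lines.

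Between 24 and 48 h in R406, a comparison that uses no DMSO array, 11 histone features fell and 1 rose in DHL6 (5.05% and 1.65% of all features, 6.70% either way). H3C4 (-1.69 ± 0.25), H2BC8 (-1.19 ± 0.34), H2AC8 (-1.14 ± 0.19) and H2AC17 (-1.09 ± 0.20) fell most, and H2BC12 rose by 0.74 ± 0.20. Without replicate 2 at 48 h the change of H2BC8 was -0.42 and not called. With the fit limited to the compared groups, 1 of these 12 calls remained, that of H2AC8. In DHL4, 8 fell and 1 rose between these times (10.7% and 14.4% of all features, 25.1% either way). H2BC5 (-2.06), H2AC6 (-1.36), the brighter set of H2AC18 and H2AC19 (-0.79) and H2BC12 (-0.75) fell most, and H1-3 rose. H2BC6, which read 3.73, 3.48 and 3.76 at 24 h and 3.13, 3.15 and 3.0 at 48 h, fell by 0.56 ± 0.19, a call lost after quantile normalization and without any of 4 single arrays. In DHL4, 4 of the 8 falls were called whichever array was left out, and the rise of H1-3 was not.

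Of the 24 features that rose in DHL6 at 24 h, 16 were also called higher at 48 h and 8 were not, and 21 of the 24 had a larger change at 24 h. The DHL6 DMSO mean was under 4 for 20 of the 24. Of the 24, 20 were called whichever array was left out. Of the 18 at 48 h, 11 were called whichever array was left out, and with the fit limited to DMSO and 48 h R406 of DHL6, 12 of the 56 features were called at 48 h in place of 21. Probe sets with the suffix _at, which the design meant for 1 gene, gave 14 of 39 rises in DHL6 at 24 h. Sets with the suffixes _s_at and _x_at, which can match several genes, gave 3 of 6 and 7 of 11. These include the sets of H2AC6, H2AC13, H2AC14, H2BC7, H2BC9, H2BC10 and H3C2, so other histone genes may contribute to those rises.

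In DMSO, 5 histone features were higher in DHL6 than in DHL4 and 2 were lower (10.0% and 10.5% of all features, 20.5% either way). H2BC5 (1.18 ± 0.31), the brighter set of H2AC18 and H2AC19 (1.11 ± 0.26), H1-4 (0.66 ± 0.20), H2AC6 (0.65 ± 0.23) and H2BC12 (0.63 ± 0.22) were higher in DHL6. H1-3, which read 3.85, 3.69 and 3.96 in DHL6, differed by -1.13 ± 0.23, and H2AC18, at 3.38 and 3.72 in DHL4 and 2.90, 2.87 and 2.89 in DHL6, was also lower. Without DHL4 DMSO replicate 2, 1 of these 7 calls was made, that of H1-3. Of up to 37 alternative fits, the call of H2BC12 was lost in 26 and that of H2AC6 in 19.

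Most genes of DNA replication fell at 24 h in both lines. Of 30 measured members of the replication list, 28 fell and 0 rose in DHL4 at 24 h (median change -1.83), and 19 fell in DHL6 (-0.69). At 48 h, 10 fell in DHL4 (-0.49) and 29 in DHL6 (-1.07). Of all features, 16.5% and 8.18% fell at 24 h in DHL4 and DHL6, and 3.79% and 14.9% at 48 h. The count of 10 in DHL4 at 48 h was 5 without DMSO replicate 1 or replicate 3 at 48 h, 6 without DMSO replicate 2, and 16 without DHL6 replicate 2 at 48 h. PCNA, the sliding clamp of replication, read 10.16 and 10.05 in DHL4 DMSO and 8.19, 8.24 and 7.97 at 24 h. In DHL6 it read 10.12, 10.02 and 10.08 in DMSO and 9.27, 9.30 and 9.30 at 24 h. The changes were -1.97 ± 0.13 and -0.78 ± 0.12, and no array overlapped with DMSO. MKI67, a proliferation marker, changed by -2.30 ± 0.12 and -0.53 ± 0.11, and CCNE2, the cyclin E2 of S phase entry, by -1.94 ± 0.32 and -1.41 ± 0.29.

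The fall of these genes at 24 h was smaller in DHL6. PCNA differed by 1.19 ± 0.18 and MKI67 by 1.78 ± 0.16. In the test of the difference, 20 of the 30 replication genes were called higher in DHL6. At 48 h 6 of the 30 were called lower in DHL6 and 0 higher. In that test 9.37% of all features were called higher at 24 h and 3.46% lower at 48 h. Of 16 genes of S phase entry, 9 fell and 3 rose in DHL4 at 24 h and 5 fell and 1 rose in DHL6. At that time 16.5% of all features fell and 13.0% rose in DHL4, and 8.18% and 6.22% in DHL6. The S phase entry rises were near these shares. E2F1 was called at 24 h in DHL4 (-0.61 ± 0.23) and not in DHL6 (0.01 ± 0.21), with no call for the difference between lines (0.62 ± 0.31). Of 17 mitosis genes, 9 fell in DHL4 at 24 h, and 3 rose and 1 fell in DHL6, against the same shares of all features. At 6 h, 12 mitosis genes rose in DHL4 and 7 in DHL6, and 0 fell (6.42% and 3.14% of all features rose). The 7 became 3 without DHL6 DMSO replicate 3. At 48 h, 11 fell in DHL4 and 12 in DHL6, and 0 rose (3.79% and 14.9% of all features fell). The 12 became 7 with only the compared groups. Their part in the histone changes was not tested.

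Of 15 genes that make and destroy histone messages, 4 rose and 6 fell in DHL4 at 24 h, where 29.5% of all features were called. In DHL6, 1 rose and 3 fell at 24 h (14.4% of all features), and 1 rose and 8 fell at 48 h (23.3%). SLBP, which binds the stem-loop, read 9.86 and 9.83 in DHL4 DMSO and 8.87, 8.80 and 8.57 at 24 h. In DHL6 it read 9.74, 9.73 and 9.75 in DMSO and 9.05, 9.22 and 9.01 at 24 h. No array overlapped, and SLBP fell by 1.09 ± 0.13 and 0.65 ± 0.12. At 48 h it fell in DHL6 (-0.53 ± 0.12) and was not called in DHL4 (-0.23 ± 0.13). The difference between lines was not called at 24 h (0.45 ± 0.18) or 48 h (-0.30 ± 0.18).

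NPAT, the coactivator of histone promoters, rose in DHL4 at 6, 24 and 48 h (1.29, 1.16 and 1.27, SE 0.27 each) and was not called in DHL6 (0.20, 0.34 and 0.41). The difference between lines was not called at these times (adjusted p from 0.0718 to 0.193). TUT7, an enzyme that adds uridines to RNA ends, rose in DHL4 at all 4 times (1.87, 1.82, 1.92 and 0.79). In DHL6 it rose at 2, 24 and 48 h (1.74, 0.99 and 1.37) and not at 6 h (0.24), where the lines differed by -1.58 ± 0.33. At 6 h in DHL6, TUT7 read 6.29, 6.54 and 5.06, against 5.77, 5.86 and 5.54 in DMSO. The missing rise and the line difference at 6 h thus lean on replicate 3. Without that array, 1 gene of the list was called higher in DHL6 at 6 h. The counts in DHL6 depended on single arrays: without DMSO replicate 1 or 2 or replicate 2 or 3 at 24 h, 1 rose and 1 fell at 24 h, and without replicate 1 at 48 h, 4 fell there. Their part in the histone changes was not tested.

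**Figure D5:**
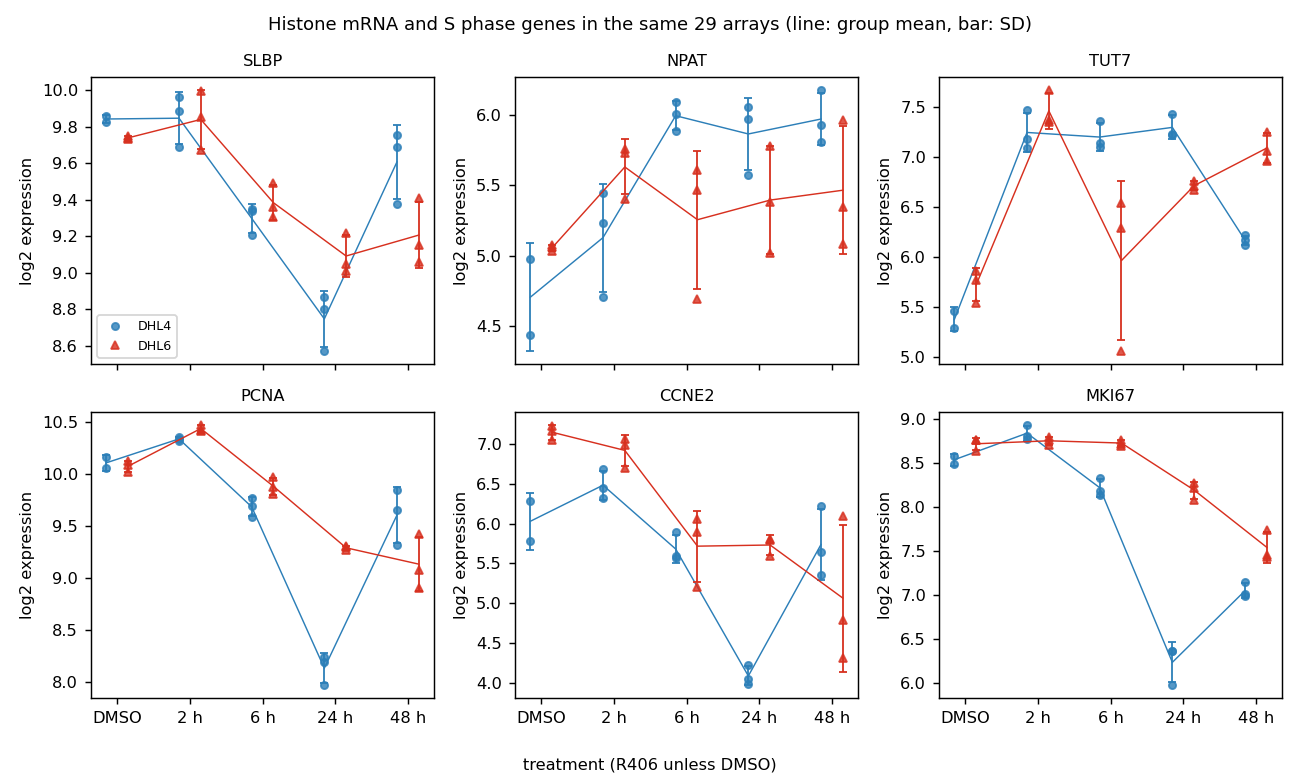
Log2 expression of SLBP, NPAT, TUT7, PCNA, CCNE2 and MKI67 in each of the 29 arrays (points) by treatment, with group means (lines) and SD (bars), DHL4 as blue circles and DHL6 as red triangles. Axes differ between panels; PCNA, MKI67 and SLBP are lowest at 24 h in DHL4, and TUT7 is above DMSO at 2 h in both lines.

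Of 9 measured histones encoded outside the clusters, 0 rose in either line at 24 or 48 h. Of all features, 13.0% and 3.53% rose in DHL4 at these times and 6.22% and 8.41% in DHL6. At such shares, 0 of 9 is not read as a result. Of the 9, 4 fell in DHL4 at 24 h, 3 in DHL6 at 24 h and 5 in DHL6 at 48 h, against 16.5%, 8.18% and 14.9% of all features. H2AX, the variant phosphorylated at DNA breaks, fell by 1.48 ± 0.15 in DHL4 and 0.74 ± 0.14 in DHL6 at 24 h. H2AZ1, the variant H2A.Z, fell by 0.99 ± 0.12 and 0.54 ± 0.11. Of 19 histone chaperones, 12 fell and 2 rose in DHL4 at 24 h, and 4 fell and 2 rose in DHL6. At 48 h in DHL6, 10 chaperones fell and 0 rose. The shares of all features in these comparisons are those given above. With the fit limited to the compared groups, 10 chaperones were called in DHL6 at 24 h. ASF1B, which hands H3 and H4 to assembly factors, fell by 1.94 ± 0.21 in DHL4 and 0.93 ± 0.19 in DHL6 at 24 h, and HAT1, which acetylates new H4, by 1.52 ± 0.15 and 1.01 ± 0.14.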

How the data were processed

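The authors deposited log2 expression values per probe set, made with RMA per the submitters' processing notes. Its version is not given in the sources used here. Genome builds are not named either, so coordinates are those of RefSeq. Probe sets were named from the platform annotation (22277 sets, 19724 with a single symbol, 568 with several, 1923 unnamed, 62 controls), and the set of highest mean represented a gene.

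With limma 3.58.1 under R 4.3.3, lmFit and eBayes fitted 10 group means to the 29 arrays (19 residual degrees of freedom), with Benjamini-Hochberg adjustment over 12171 features per contrast and a threshold of 0.05. The fit was tested on simulated data. Alternatives were quantile normalization, median centring, only compared groups, all probe sets, the mean of a gene's sets, a filter at a mean of 5, a trended robust fit, a replicate block and leaving out each array.

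Per-array values are given for up to 6 called members per comparison by size, the member of highest mean in each class and called shared sets; up to 4 called genes per context list were named, and SLBP, NPAT, PCNA, MKI67, E2F1, TUT7 and CCNE2 always. The members and lists were chosen with earlier results of these data known; the log2 line of 4 was set after values were seen. The number of arrays limits the precision.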

Additional observations from a re-analysis of the deposited data

Results flagged for a closer look

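The values here are histone features whose change from DMSO differed between the lines in the limma test of the difference (DHL6 minus DHL4, log2). At 6 h it was H2BC12 (-1.47). At 24 h these were H2BC8 (4.04), H3C4 (3.41), H2AC17 (1.76), H3C12 (1.64), H2BC7 (1.62), the dimmer set of H2AC18 and H2AC19 (1.30), H2AC8 (1.16), H2AC13 (1.10), H3C10 (1.01), H2AC14 (0.88), H2BC9 (0.79), H3C1 (0.62) and the set of H4C14 and H4C15 (0.59). At 48 h these were H2BC8 (3.14), H2AC6 (2.21), H3C4 (2.04), H2BC5 (1.84), H2BC7 (1.31), H3C10 (0.94) and H2AC13 (0.83). Of the 13 at 24 h, 8 were called whichever array was left out, and of the 7 at 48 h, 6 were. The exception at 48 h was H3C10. Groups of 2 or 3 arrays are too small to test for an outlying array.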

How the results depend on the processing

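The 116 member calls were each set against up to 37 alternative fits, giving 4205 pairs of a call and an alternative. Of these pairs, 3945 kept the direction and the call, 260 kept the direction and lost the call, and 0 changed sign. Many alternatives leave out an array of neither compared group, which weighs toward keeping a call. Of the 116 calls, 57 were kept in every alternative run. Counts of called members that moved by more than 1.5 times were as follows. With a filter at a mean log2 of 5, which leaves 6 of the 56, the counts were 2 and 3 for DHL4 at 6 and 24 h, 0, 1, 5 and 6 for DHL6 at 2, 6, 24 and 48 h, 2, 2 and 1 for the difference between lines at 6, 24 and 48 h, 4 for the lines in DMSO, and 4 and 1 for 48 against 24 h in DHL4 and DHL6. Under this filter 3 rose and 2 fell in DHL6 at 24 h, and 3 rose and 3 fell at 48 h. The 2 called differences between lines at 24 h were smaller in DHL6, where the main fit had 13 larger and 0 smaller. Quantile normalization gave 1 for DHL4 at 48 h. With only the compared groups the counts were 1 for DHL4 at 48 h, 12 for DHL6 at 48 h, 3 for the difference at 6 h and 1 for 48 against 24 h in DHL6. At 6 h the difference gave 0 calls with the mean of probe sets and 2 with the trended robust fit. The cause was not tested.

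Replicate numbers did not pair the arrays: deviations of same-numbered arrays correlated at a median r of 0.005 over 26 pairs in DHL4 and -0.019 over 30 pairs in DHL6. With a replicate block, DHL4 at 48 h gave 1 call, and DHL4 at 6 and 24 h gave 3 and 4, without H1-3.

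Leaving out each array gave 0 to 1 calls for DHL4 at 2 h, 2 to 4 at 6 h, 4 to 8 at 24 h and 1 to 3 at 48 h. For DHL6 it gave 1 to 5, 1 to 6, 23 to 26 and 14 to 22. For the difference between lines it gave 0 to 1, 1 to 2, 9 to 15 and 6 to 9, for the lines in DMSO 1 to 7, and for 48 against 24 h 6 to 10 in DHL4 and 8 to 13 in DHL6. Single arrays moved these counts by more than 1.5 times: DHL4 at 2 h gave 1 without replicate 2 at 2 h, DHL4 at 6 h 2 without DMSO replicate 2, and DHL4 at 48 h 1 without either DMSO array, replicate 2 at 6 h or replicate 3 at 48 h. DHL6 at 2 h gave 1 without DMSO replicate 1 or replicate 3 at 2 h and 2 without DMSO replicate 3 or replicate 2 at 2 h. DHL6 at 6 h gave 3, 1 and 2 without DMSO replicate 2, DMSO replicate 3 and replicate 2 at 6 h. The difference at 2 h gave 1 without DHL6 replicate 1 at 2 h or replicate 3 at 24 h. At 6 h it gave 2 without DHL4 DMSO replicate 1 or DHL6 replicate 1 or 3 at 2 h or 48 h. The lines in DMSO gave 1 without DHL4 DMSO replicate 2.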
